A study of Mus musculus with 4 samples.

Results

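The fat cell genes examined here were 10 genes that mark adipocytes: Adipoq, Lep, Retn, Plin1, Cidec, Lpl, Fabp4 and Pck1, taken as white and general fat markers, and Ucp1 and Cidea, taken as brown fat markers. They were found by matching the RefSeq accession that each probe of the array targets to a mouse gene symbol. All 10 genes were present, with 13 of the 39429 probes and 10 of the 20971 named genes. Gene expression was measured on 4 two-colour arrays, each of which compared 2 cRNA extracts. The extract in Cy5, a red dye, is named as DEP treated mouse ear (diesel exhaust particles), and the extract in Cy3, a green dye, as an untreated ear that served as control. Per the methods, 9 male BALB/c mice aged 6 to 10 weeks were used, DEPs were inhaled for 1 h a day on 5 days, all mice were killed on day 14, and the temporal bone area with the middle ear was harvested. Neither the number of mice behind an extract nor a vehicle treatment of the controls is stated in the sources used here. If the extracts are not from separate mice, the p-values measure only the spread between arrays. The dyes were not swapped, so the dye and the treatment cannot be told apart.

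Adipocytes store fat as triglyceride in lipid droplets and release hormones into the blood. White adipocytes hold a single large droplet and serve as an energy store, whereas brown adipocytes hold many small droplets and burn fatty acids to make heat through the uncoupling protein UCP1. Fat cells arise under the control of the nuclear receptor PPARγ and the C/EBP factors, and they lie in the marrow of bone and in the soft tissue around it. In an extract of whole tissue, fewer fat cells and less RNA per fat cell cannot be told apart.

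Each of the 13 probes was well above background in Cy5 and in Cy3 on 4 of 4 arrays, so that RNA of all 10 genes was detected in the 8 extracts. Lep, with signals between 30.7 and 63.1, was the only gene near the background limit. For Lep, a single probe printed in 10 spots, well above background was taken as at least 50% of the unflagged spots. No spot of the array was saturated. Values are given as log2 ratios of Cy5 (labelled DEP) over Cy3 (labelled control), and where a gene had several probes the brightest stands for it. The direction follows the channel names in the labels, and it runs against the direction in which the study names its own candidate genes. Of 25 tested genes named there as higher, 24 had a mean ratio below 0 here, and of 11 named as lower, 9 had one above 0. The study also reported qRT-PCR in its own direction, with CHRM1 and EPO increased and ESR1, SOS1, CD4 and IFNA1 decreased. If the extracts had been exchanged, every sign below would turn.

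By mean ratio, 7 of the 10 genes were higher in the channel labelled DEP, where 55.3% of all genes tested were so, and 3 were lower (Fabp4, Pck1 and Ucp1). The signs of Lep, Fabp4 and Pck1 turned under the normexp and median processing described below, with means of -0.13, 0.85 and 0.29. The median over the 10 genes was 0.21, against 0.04 over the 17962 genes tested. It was 0.38 without array 1, 0.13 without array 2 and 0.06 without array 4. Retn and Cidec had an unadjusted p under 0.05 in limma's moderated test, both higher in the channel labelled DEP, which is 2 of 10 genes where 16.7% of all genes had one in either direction (9.19% higher and 7.5% lower). After Benjamini-Hochberg adjustment over all probes, limma called 0 of the 10 genes and 0 of all genes at 0.05. Under a different processing (normexp background correction, each array centred on its median) 6 of the 10 genes had an unadjusted and 3 an adjusted p under 0.05 by limma, but 43.6% and 21.1% of all genes then did too. With it 3 of the 10 genes (Retn, Cidec and Cidea) were past 2-fold, as were 2.95% of all genes. The median over the 10 genes was then 0.83, against 0.21 over all genes. In the main processing, the mean ratio of 0 of the 10 genes was past 2-fold, a limit that 6.21% of all genes passed. On single arrays, 4 of the 10 genes were past 2-fold on array 1, 0 on array 2, 1 on array 3 and 2 on array 4, where 19%, 8.67%, 8.75% and 7.82% of all genes were. Retn and Cidec had the same sign on all 4 arrays, as did 27.5% of all genes. From array 1 to array 4 the 10 genes had medians of -0.35, 0.52, -0.07 and 0.77. All 10 were above 0 on array 2 but 4 of 10 on array 1. Over all probes, the correlation between arrays was 0.61 for arrays 1 and 2, 0.38 for 1 and 3, -0.22 for 1 and 4, 0.37 for 2 and 3, 0.14 for 2 and 4 and 0.29 for 3 and 4.

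**Figure D1:**
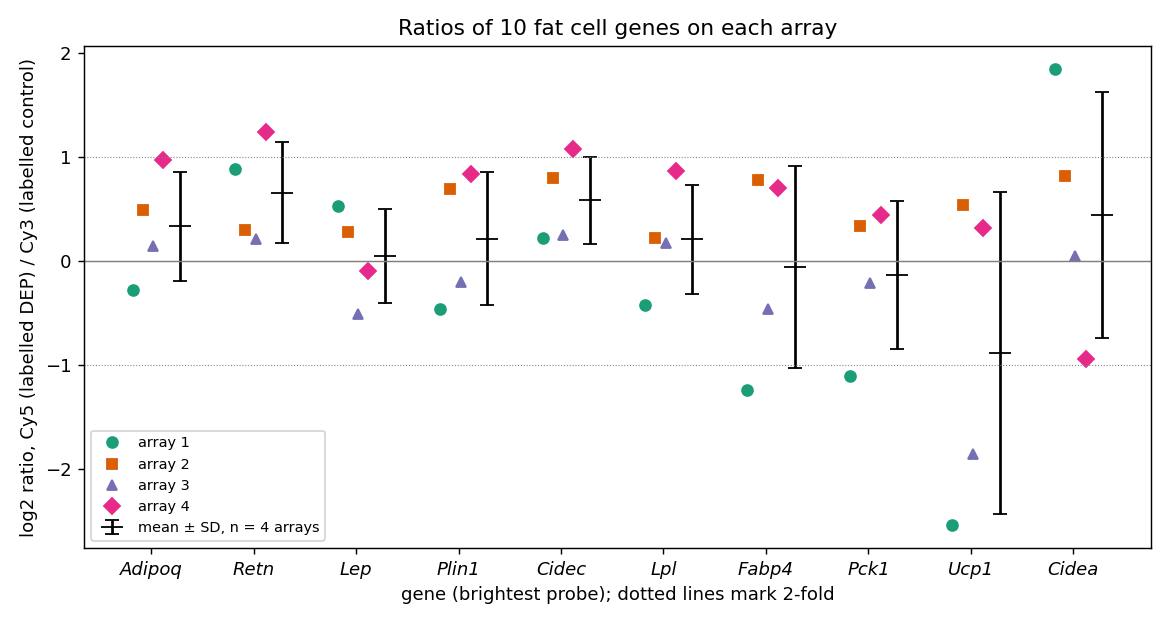
Log2 ratio of Cy5 (labelled DEP) over Cy3 (labelled control) on the vertical axis for the brightest probe of each of the 10 fat cell genes, with 1 symbol per array and the mean ± SD of 4 arrays in black. Retn and Cidec lie above 0 on all 4 arrays, and Ucp1 spans -2.54 to 0.54.

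The hormones of fat cells came first. Adiponectin, the product of Adipoq, is made almost only by adipocytes. The signal of its probe (A_51_P458451) was 7147, 10505, 11040 and 8173 in Cy5 on arrays 1 to 4 and 8643, 7449, 9948 and 4176 in Cy3. The ranges overlapped, with the lowest of the 8 values in the control channel of array 4. The log2 ratio was -0.27 on array 1, 0.50 on array 2, 0.15 on array 3 and 0.97 on array 4, a mean of 0.34 ± 0.53 (SD, n = 4 arrays; standard error 0.23, limma adjusted p = 0.460). The SD between arrays was thus larger than the mean. Without array 4 the mean was 0.12, and without array 1 it was 0.54.

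Retn encodes resistin, which in mice is secreted by adipocytes and opposes the action of insulin. Its brightest probe (A_55_P2428514) had signals of 6062, 5250, 6978 and 3744 in Cy5 and 3276, 4264, 6019 and 1587 in Cy3. The Cy5 signal was the higher of the pair on each array, although the ranges of both channels overlapped. The ratios were 0.89, 0.30, 0.21 and 1.24, and their mean was 0.66 ± 0.49 (SD, n = 4 arrays; standard error 0.21), a 1.58-fold higher signal in the channel labelled DEP. The unadjusted p was 0.0271 and the adjusted p 0.224 in limma's moderated test. The second probe for Retn (A_55_P1984806) gave 0.80, 0.06, 0.13 and 1.24 on the same arrays, with a mean of 0.56. Both probes were above 0 on 4 of 4 arrays, as were 16.2% of all genes by their brightest probe. With array 1 or array 4 left out, limma's moderated test gave Retn an unadjusted p of 0.0881 or 0.0758.

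Lep encodes leptin, the hormone that reports the size of the fat store to the brain. The mean signal of its spots was 63.1, 39.8, 30.7 and 32.1 in Cy5 and 45.1, 34.0, 43.1 and 36.0 in Cy3, close to the limit of detection. In Cy3 the number of spots well above background was 8 of 9, 7 of 9, 6 of 10 and 5 of 10 on arrays 1 to 4, after 1 flagged spot was left out on each of arrays 1 and 2. The ratios were 0.53, 0.28, -0.51 and -0.09, with a mean of 0.05 ± 0.45 (SD, n = 4 arrays; limma adjusted p = 0.901). On array 1 all 9 spots were above 0, on array 2 8 of 9, on array 3 0 of 10 and on array 4 4 of 10.

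The second group was the coat of the lipid droplet. Perilipin 1 (Plin1) covers the droplet of adipocytes and holds back lipases until fat is called for. Its probe had signals of 1771, 2912, 3337 and 1948 in Cy5 and 2436, 1805, 3835 and 1089 in Cy3. The channel labelled control was brighter on arrays 1 and 3, and the channel labelled DEP on arrays 2 and 4. The ratios were accordingly -0.46, 0.69, -0.20 and 0.84, with a mean of 0.22 ± 0.64 (SD, n = 4 arrays; limma adjusted p = 0.677). The mean was 0.44 without array 1, 0.06 without array 2, 0.36 without array 3 and 0.0099 without array 4.

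Cidec promotes the fusion of lipid droplets into the large droplet of white fat. Its brightest probe (A_55_P1969131) had signals of 7942, 8819, 11113 and 6328 in Cy5, against 6785, 5075, 9336 and 3003 in Cy3. As for Retn, the Cy5 signal was the higher on every array while the ranges overlapped. The ratios were 0.23, 0.80, 0.25 and 1.08, with a mean of 0.59 ± 0.42 (SD, n = 4 arrays; standard error 0.19). The unadjusted p was 0.0268 and the adjusted p 0.224 in limma's moderated test. The dimmer probe (A_55_P1969128) had -0.20, 0.24, 0.22 and 1.23, below 0 on array 1, and the mean of both probes gave an unadjusted p of 0.0758 (limma). With array 2 or array 4 left out, limma's moderated test gave Cidec an unadjusted p of 0.0994 or 0.0828. An exact sign-flip test, two-sided, gave p = 0.125 for both Retn and Cidec, which is the smallest p that 4 arrays allow.

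Lpl and Fabp4 bring fatty acids into the cell. Lipoprotein lipase frees them from the fat particles of the blood, and it is also made by muscle and macrophages. The signals of the brighter Lpl probe (A_51_P259296) were 14976, 18315, 23272 and 16676 in Cy5 and 20063, 15662, 20592 and 9161 in Cy3. The channel labelled control was the brighter on array 1 alone. The ratios were -0.42, 0.23, 0.18 and 0.86 (mean 0.21 ± 0.53, SD, n = 4 arrays; limma adjusted p = 0.631), and those of the other probe (A_52_P257812) were -0.12, 0.18, -0.07 and 0.39. The order of the arrays was therefore close to that of Adipoq.

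FABP4 carries fatty acids inside adipocytes and is made by endothelial cells and macrophages too. Its probe had signals of 40323, 77444, 70521 and 58235 in Cy5 and 95478, 45184, 97189 and 35806 in Cy3. On arrays 1 and 3 the channel labelled control was brighter, and on arrays 2 and 4 the channel labelled DEP was. The ratios were -1.24, 0.78, -0.46 and 0.70, and their mean was -0.06 ± 0.97 (SD, n = 4 arrays; limma adjusted p = 0.945). On array 1 the signal was thus 2.37-fold lower in the channel labelled DEP.

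Pck1 encodes the cytosolic phosphoenolpyruvate carboxykinase, which in fat makes the glycerol backbone of triglyceride and in liver and kidney makes glucose. Signals were 2132, 4850, 6591 and 3771 in Cy5 and 4599, 3840, 7600 and 2777 in Cy3. The ratios of -1.11, 0.34, -0.21 and 0.44 had the same signs as those of Plin1 and Fabp4, with a mean of -0.13 ± 0.71 (SD, n = 4 arrays; limma adjusted p = 0.821).

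**Figure D2:**
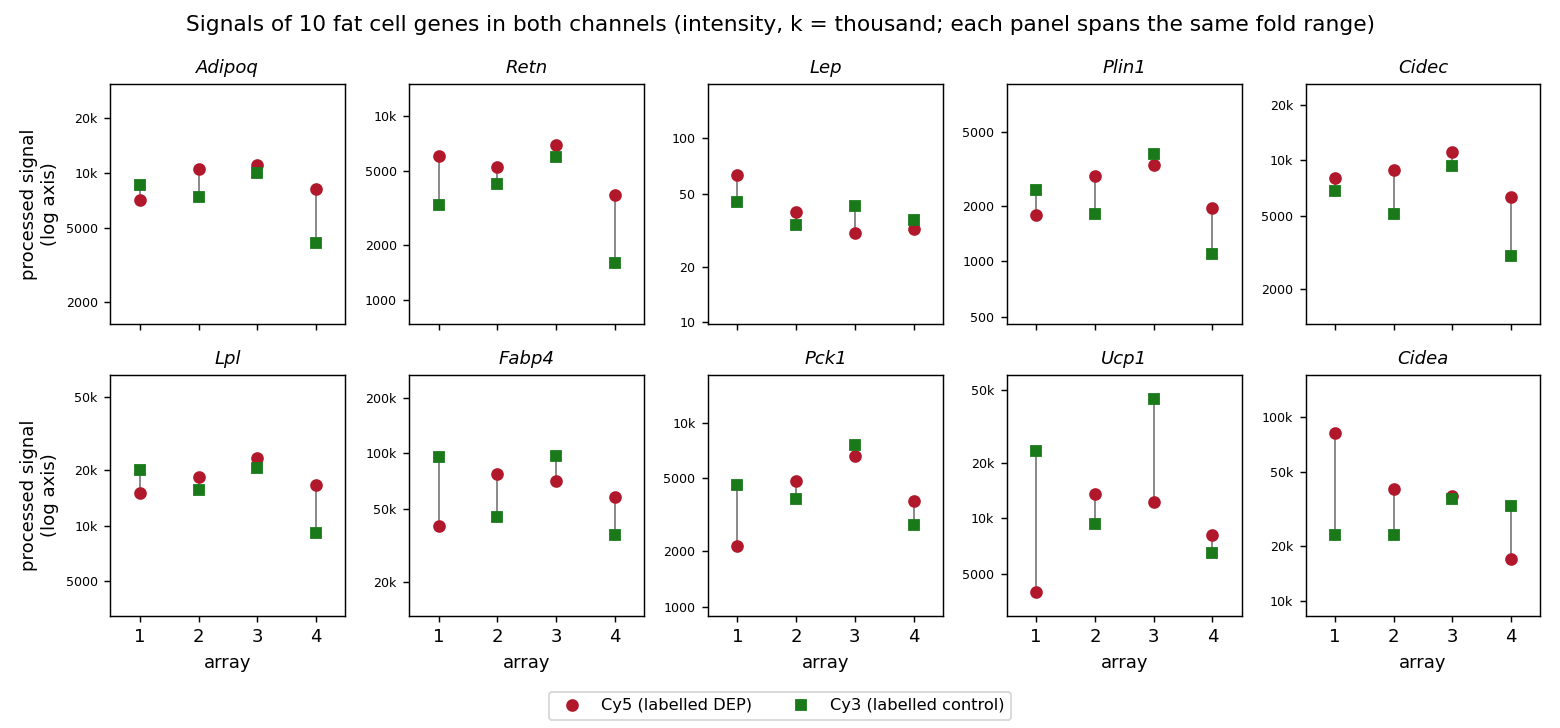
Processed signal (intensity, logarithmic vertical axis) of the brightest probe of each fat cell gene in Cy5 (circles, labelled DEP) and Cy3 (squares, labelled control) on arrays 1 to 4, with a grey line joining both channels of an array. Ucp1 shows the widest gaps, with 3972 against 23141 on array 1 and 12250 against 44436 on array 3, and Cidea has 82273 against 22808 on array 1.

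The brown fat markers did not behave as a pair. Ucp1 encodes the proton carrier of brown fat mitochondria and is the marker by which brown adipocytes are defined. The signals of its probe (A_51_P426353) were 3972, 13527, 12250 and 8089 in Cy5 and 23141, 9324, 44436 and 6471 in Cy3. The control channels of arrays 1 and 3 were the highest of the 8 values, and the other 6 values lay between 3972 and 13527. The log2 ratio was -2.54 on array 1 and -1.86 on array 3, which is 5.83-fold and 3.63-fold lower in the channel labelled DEP, but 0.54 and 0.32 on arrays 2 and 4. The mean of -0.89 ± 1.55 (SD, n = 4 arrays; standard error 0.61, limma adjusted p = 0.466) was therefore smaller than the SD. Of all genes tested, 3.58% had a larger SD between arrays. The mean stayed below 0 with each array left out in turn, between -1.36 and -0.33.

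Cidea is a relative of Cidec that coats the droplets of brown fat and is also known from sebaceous glands. Its signals were 82273, 40454, 37238 and 17026 in Cy5 and 22808, 22982, 35930 and 32703 in Cy3. The channel labelled DEP of array 1 was the highest of these values, and that of array 4 the lowest. The ratios were 1.85, 0.82, 0.05 and -0.94, which is 3.61-fold higher in the channel labelled DEP on array 1 and 1.92-fold lower on array 4, with a mean of 0.44 ± 1.18 (SD, n = 4 arrays; standard error 0.47, limma adjusted p = 0.626). Without array 1 the mean was -0.02. On array 1 the ratio of Cidea exceeded that of Ucp1 by 4.39 on the log2 scale and on array 3 by 1.91, whereas on array 4 it was 1.26 below it. The mean difference was 1.33 ± 2.42 (exact sign-flip test, two-sided, p = 0.375, n = 4 arrays), smaller than its SD, and 4 arrays allow no p under 0.125 in this test.

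Against Adipoq, the ratio of Ucp1 differed by -2.27, 0.04, -2.01 and -0.65 on arrays 1 to 4. The mean difference was -1.22 (exact sign-flip test, two-sided, p = 0.25, n = 4 arrays, where 0.125 is the smallest p). Cidea differed from Adipoq by 2.13, 0.32, -0.10 and -1.91, with p = 0.75 in the same exact test. By medians of the lists, white minus brown was -0.00225, -0.26, 0.88 and 1.16. Since Ucp1 and Cidea had opposite signs on arrays 1, 3 and 4, the brown median lies between 2 unlike values there and describes neither gene.

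**Figure D3:**
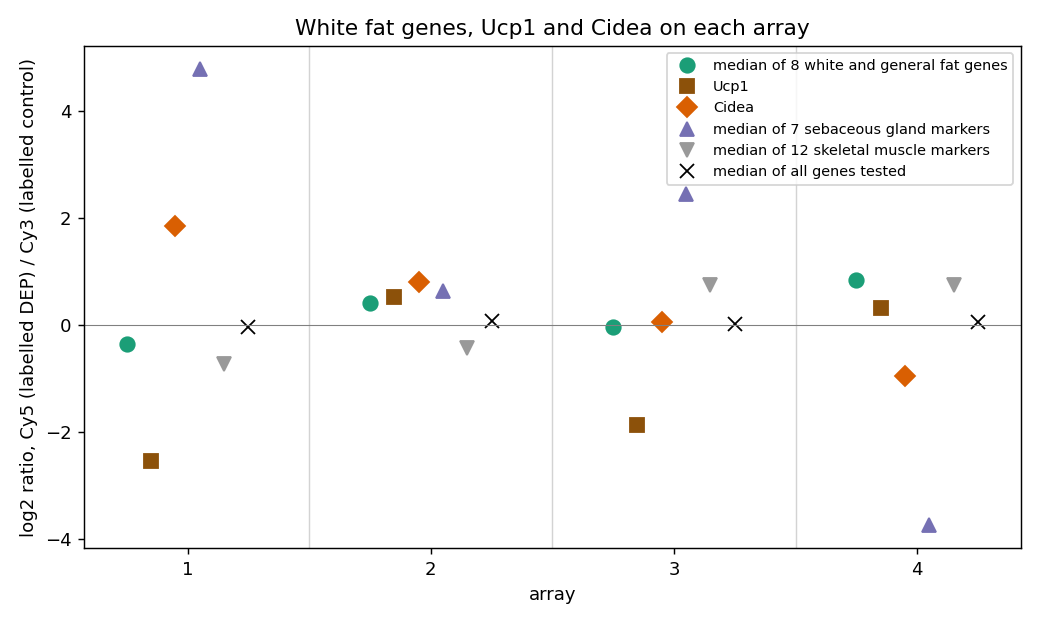
Log2 ratio of Cy5 (labelled DEP) over Cy3 (labelled control) on the vertical axis, on each array for Ucp1, Cidea, the median of the 8 white and general fat genes, the medians of the sebaceous gland and skeletal muscle marker lists, and the median of all genes tested. On array 1 Ucp1 lies at -2.54 and Cidea at 1.85, with the sebaceous gland markers at 4.79, and on array 4 Cidea lies at -0.94 with those markers at -3.74.

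The levels of the genes over the 8 extracts were compared after loess normalization within arrays and quantile normalization of the mean intensities between arrays. From the lowest to the highest extract, Adipoq spanned 2.68-fold, Cidec 3.52-fold, Plin1 3.35-fold, Fabp4 3.45-fold, Pck1 5.50-fold, Cidea 3.90-fold and Ucp1 15.9-fold. Lep spanned 1.14-fold on this scale, on which the normexp offset of 50 exceeds most of its signal. The extract labelled control on array 3 was the highest for Lep, Plin1, Fabp4, Pck1 and Ucp1, and the extract labelled DEP on that array was the highest for Adipoq, Retn, Cidec and Lpl. Lep's highest and second highest levels on this scale were nearly equal (0.09 and 0.08 around its mean), and by signal its highest extract was the one labelled DEP on array 1. On the normalized scale Cidea was highest in that extract too, and Plin1, Fabp4, Pck1 and Ucp1 were lowest in it. Across the 8 extracts, of which 2 share each array, Pearson's r lay between 0.72 and 0.96 for the 15 pairs among Adipoq, Plin1, Cidec, Lpl, Fabp4 and Pck1, genes picked after the values were seen, and between -0.21 and 0.96 for all 45 pairs. Of the other white and general markers, Retn had r of 0.95 with Cidec but 0.57 with Fabp4, and Lep had -0.12 with Adipoq and -0.21 with Fabp4. These coefficients describe 8 points and carry no test. Ucp1 had r of 0.90 with Fabp4 and 0.59 with Adipoq, and Cidea had r of 0.04 with Adipoq and -0.20 with Ucp1.

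By signs, Plin1, Fabp4, Pck1 and Ucp1 were below 0 on arrays 1 and 3 and above 0 on arrays 2 and 4, which holds for 4 of 10 fat cell genes and for 5.35% of all genes with 4 ratios. Adipoq and Lpl were below 0 on array 1 alone, as were 11.3% of all genes. The first pattern was chosen after the values were seen, so the share is a description. Among the 84 other fat genes tested, 20 had it. These included Lipe and Pnpla2, lipases that break down stored fat, and Slc2a4, the glucose carrier GLUT4. Cox7a1 and Cox8b, respiratory chain subunits listed here with brown and beige fat, had it too.

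The genes most like Adipoq were sought among the 14272 other genes well above background in Cy5 and Cy3 on every array, by the root mean square difference of their 8 centred log2 levels from those of Adipoq. The nearest were Pde3b (0.20), which in fat cells lowers cyclic AMP in response to insulin, Klb (0.20), a co-receptor of FGF21, Ces1f (0.21), Nnmt (0.21), Ephx2 (0.22), Amy1 (0.23), Gbe1 (0.23), Ehhadh (0.23), Rbp4 (0.23) and Retsat (0.24). Lpl was nearer than any of these at 0.14, and Cidec lay at 0.22. For Ucp1 and Cidea 13382 and 13086 of the searched genes lay nearer to Adipoq than they did. Among the white and general markers this number was 4932 for Lep and 817 for Pck1. The measure also grows with the range of a gene, which was 15.9-fold for Ucp1 and 1.14-fold for Lep. The same search from Ucp1 and from Cidea was added after the values were seen. Nearest to Cidea were Slc25a1 (0.14), the mitochondrial citrate carrier that feeds lipid synthesis, Pparg (0.20) and Plin4 (0.20). No gene came as near to Ucp1, the closest being Tmem179 (0.42), Acot11 (0.43) and Adrb3 (0.43), the β3-adrenergic receptor of fat cells. The rest of the 10 nearest were Elavl2, Thrsp, Uchl1, Tlx2, Ngfr, Celf6 and Slc7a14. Among these Thrsp is a gene of lipid synthesis, whereas Elavl2, Uchl1 and Ngfr are known from neurons and nerve. The medians of the neuron markers were -2.40, -1.83, -0.49 and 0.25 on arrays 1 to 4, with the sign of Ucp1 on arrays 1, 3 and 4 and the opposite sign on array 2, and their part in the ratios of Ucp1 was not tested.

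Promoter sequences are shown for the hormone gene Adipoq, for the droplet gene Plin1 and for Ucp1, to set beside their ratios the DNA from which each is read. They are the 250 bases before the start of the gene in RefSeq, assembly GRCm38.p6, whose table held 7 of the 10 genes. Adipoq lies at chr16:23146286-23146535 on the plus strand, Plin1 at chr7:79732777-79733026 on the minus strand and Ucp1 at chr8:83290098-83290347 on the plus strand. Capitals mark matches, on either strand, to TTGCNNAA, a form of the C/EBP site, or to AGGTCA, a site of nuclear receptors such as PPARγ.
Adipoq: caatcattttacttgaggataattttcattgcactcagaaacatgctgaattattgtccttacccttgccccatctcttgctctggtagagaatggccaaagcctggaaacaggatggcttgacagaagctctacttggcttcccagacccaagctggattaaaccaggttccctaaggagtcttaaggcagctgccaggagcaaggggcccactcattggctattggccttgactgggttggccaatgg
Plin1: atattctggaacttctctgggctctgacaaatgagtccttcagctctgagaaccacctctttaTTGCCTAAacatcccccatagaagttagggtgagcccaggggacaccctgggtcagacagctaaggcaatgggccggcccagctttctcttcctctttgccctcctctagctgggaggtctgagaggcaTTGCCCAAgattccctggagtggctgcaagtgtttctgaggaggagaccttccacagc
Ucp1: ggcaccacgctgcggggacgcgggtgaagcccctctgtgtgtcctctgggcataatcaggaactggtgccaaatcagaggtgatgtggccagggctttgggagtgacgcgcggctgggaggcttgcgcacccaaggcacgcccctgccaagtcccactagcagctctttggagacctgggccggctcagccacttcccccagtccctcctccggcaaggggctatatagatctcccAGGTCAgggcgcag
TTGCNNAA was found in the windows of 3 of the 7 genes (Plin1, Lep and Cidec) and in 9.56% of all 32851 promoter windows. AGGTCA was found for 1 of 7, in Ucp1 beginning 14 bases before the start, and in 14% of all windows. A direct repeat of AGGTCA with 1 base between the copies, which also counts under AGGTCA, was found for 0 of 7 and in 0.0335% of all windows. A match is a match of letters only, and the arrays did not measure binding.

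The other genes of fat cells were taken from a list of 85, of which 84 were tested and 80 were well above background throughout. Their median ratio was 0.11, against 0.04 over all genes. An unadjusted p under 0.05 in limma's moderated test was found for 11, of which 9 were higher and 2 lower in the channel labelled DEP. That is 13.1% of the list, below the 16.7% of all genes, and 0 passed after adjustment. Without array 1 11 genes had such a p, without array 2 3, without array 3 5, and without array 4 17, and 15.5%, 8.61%, 9.86% and 18.4% of all genes had one in the same fits.

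The counts by role stand against 55.3% of all genes higher by mean and 16.7% with an unadjusted p under 0.05. Among 11 transcription factors, 10 were higher by mean and 2 (18.2%) had an unadjusted p under 0.05, a share near that of all genes. These were Klf15 (0.55 ± 0.31, limma adjusted p = 0.193) and Rxra, the partner of PPARγ on DNA (0.60 ± 0.44, adjusted p = 0.227), each above 0 on 4 of 4 arrays (SD, n = 4 arrays). Cebpd had 0.33 ± 0.37. Pparg, also named after its values were seen, had ratios of 1.99, 0.79, 0.33 and -0.64, in the order and near the size of those of Cidea.

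Of 15 genes of fatty acid and triglyceride synthesis, 11 were higher and 4 lower by mean. The medians of this group were 0.88, 0.54, -0.24 and -0.33 on arrays 1 to 4. The desaturase Scd2 was lower on 4 of 4 arrays, with -0.64 ± 0.11 (SD, n = 4 arrays; limma adjusted p = 0.112), and Dgat2, which joins the last fatty acid to triglyceride, was higher on 4 of 4 with 0.65 ± 0.41 (adjusted p = 0.197). Gpd1 had -0.31 ± 0.64. In the group of 13 genes of the lipid droplet and lipolysis, 12 were higher by mean. Abhd5, which activates the main triglyceride lipase, had 0.51 ± 0.38 (limma adjusted p = 0.240), and Plin5 had 0.28 ± 0.32 (adjusted p = 0.381).

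For uptake, 6 of 8 genes were higher by mean. The fatty acid carriers Cd36 (0.44 ± 0.30, SD, n = 4 arrays; limma adjusted p = 0.242) and Slc27a1 (0.35 ± 0.18, adjusted p = 0.240) were above 0 on 4 of 4 arrays, and Angptl4, an inhibitor of lipoprotein lipase, had -0.36 ± 0.42 (adjusted p = 0.360). Of 10 other hormones and receptors, the leptin receptor Lepr was lower on 4 of 4 arrays with ratios of -0.18, -0.56, -1.13 and -0.87 (mean -0.69 ± 0.41, limma adjusted p = 0.186). Nampt had 0.23 ± 0.11 and the insulin receptor Insr -0.23 ± 0.32. Of 7 genes of fat cell precursors, 7 were higher by mean and 0 had an unadjusted p under 0.05 (limma), where 55.3% and 16.7% of all genes did. On arrays 1 to 4 the medians of these 7 genes were 0.10, 0.34, -0.12 and 0.36. Dlk1 had 0.51 ± 1.38, Ly6a 0.17 ± 0.22 and Dpp4 0.18 ± 0.08.

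The list of brown and beige fat held 21 genes, of which 20 were tested. Their medians on arrays 1 to 4 were -0.41, 0.48, 0.01 and 0.25, or -0.62, 0.57, -0.07 and 0.18 over the 17 well above background throughout. Of the 20 genes, 9 were higher and 11 lower by mean. Tnfrsf9, a marker of beige fat that activated T cells also make, was above 0 on 4 of 4 arrays (0.54 ± 0.15, SD, n = 4 arrays; limma adjusted p = 0.148). Zic1, which marks brown fat and also cerebellum, had -3.94, -3.55, -0.32 and 1.01, and Ppara 0.54 ± 0.67. Named after their values were seen, Cox7a1 had -1.48, 0.17, -0.37 and 0.17, and Cox8b -1.42, 0.25, -0.39 and 0.11, with the signs of Ucp1 on each array. These signs were found for 6 of the 20 tested genes (Cox7a1, Cox8b, Cpt1b, Ebf2, Letmd1 and Slc27a2) and for 5.35% of all genes. They were not found for Dio2 (-0.62, -0.01, -0.35 and 0.52) or Otop1 (-0.08, 0.65, 0.10 and 0.35). From the lipolysis list, in which 12 of 13 genes were higher by mean, Adrb3 was also picked for its values, which were -1.40, 0.26, -1.30 and 0.35. The brown fat regulators Prdm16 (-0.39, 0.69, -0.65 and -0.09) and Ebf2 (-0.44, 0.37, -0.51 and 0.32), named after their values were seen as well, varied less, and Elovl3, an elongase of brown fat and of sebaceous glands, had 4.10, 0.63, 2.02 and -3.17.

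Elovl3 belonged to a second set of fat genes that had the signs of Cidea on arrays 1 and 4. On array 3 the set was not uniform, with 2.02 for Elovl3 and -0.29 for Cebpa against 0.05 for Cidea. Past 2-fold higher on array 1 and below 0 on array 4 were 18 of the 84 other fat genes (21.4%), against 6.65% of all genes with 4 ratios, a pattern chosen after the values were seen. Besides Pparg they included Fabp5, the fatty acid carrier of epidermis (4.79 on array 1 and -3.31 on array 4), Mgll (3.77 and -2.53), Elovl6 (3.27 and -2.79), Plin2 (2.75 and -1.58), Scd1 (2.29 and -1.96) and Dgat1 (2.04 and -0.91). Cidea was the only 1 of the 10 fat cell genes with that pattern. The reverse, past 2-fold lower on array 1 and above 0 on array 4, was found for Fabp4, Pck1 and Ucp1, for 8 of the 84, and for 6.45% of all genes.

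**Figure D4:**
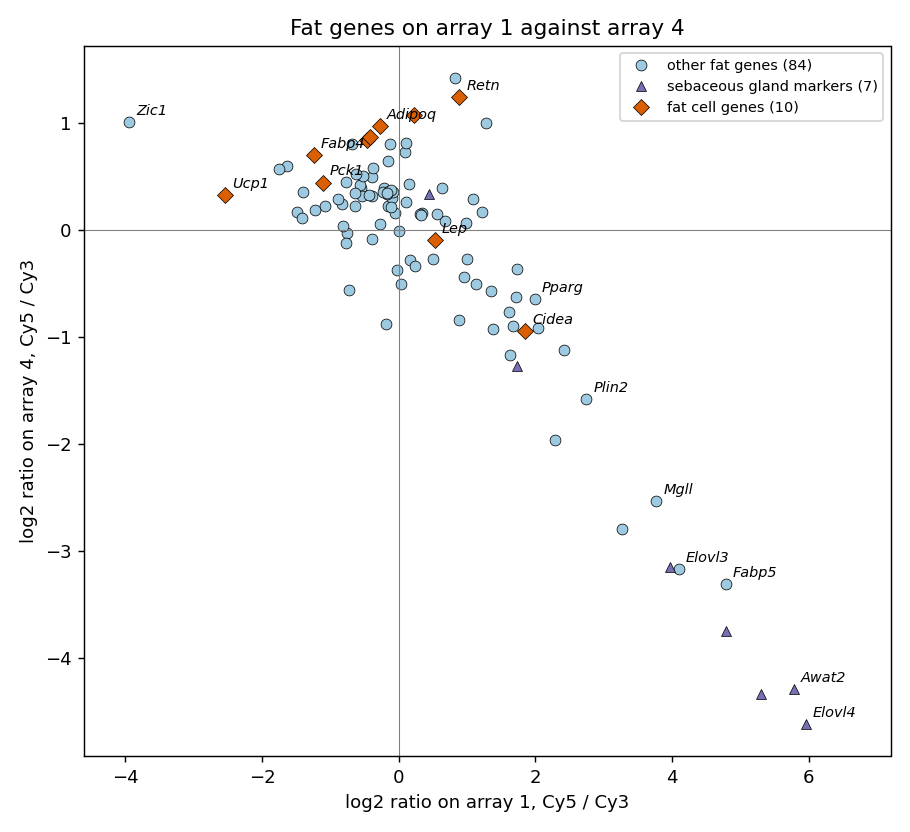
Log2 ratio of Cy5 (labelled DEP) over Cy3 (labelled control) on array 1 (horizontal axis) and on array 4 (vertical axis) for the 10 fat cell genes (diamonds), 84 other fat genes (circles) and 7 sebaceous gland markers (triangles). Cidea (1.85, -0.94) and Pparg (1.99, -0.64) lie in the lower right with Fabp5 and 6 of the 7 sebaceous gland markers, while the sebaceous marker Mc5r (0.44, 0.33) lies in the upper right, and Ucp1 (-2.54, 0.32), Fabp4 and Pck1 lie in the upper left.

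Lists of markers of other cell types were measured beside these genes. All 7 markers of the sebaceous gland, the fat-secreting gland of skin, were tested, and 6 were well above background in Cy5 and Cy3 throughout. Far2 was so in neither channel on any array. The list's medians were 4.79, 0.64, 2.45 and -3.74 on arrays 1 to 4, with the sign of Cidea on each array. The exception within the list was Mc5r, with 0.44 on array 1 and 0.33 on array 4. The signals of the 7 markers had a summed Cy5 signal of 5690 to 279801 and a summed Cy3 signal of 7861 to 95109. In Cy5 the highest sum was on array 1 and the lowest on array 4, as for Cidea. In Cy3 the highest sum was on array 4, where Cidea had the second highest of its Cy3 signals, whereas on array 3, with the highest Cy3 signal of Cidea (35930), the sum was the lowest (7861). Their part in the ratios of Cidea, Pparg and Elovl3 was not tested.

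Skeletal muscle also makes LPL. Its 12 markers were all well above background, with sums of 347515 to 623838 in Cy5 and 289431 to 983786 in Cy3, and their medians were -0.72, -0.42, 0.75 and 0.76. They shared the sign of Lpl on arrays 1, 3 and 4 and differed from it on array 2. For endothelium, which makes FABP4, 9 of 9 markers were measured, with sums from 16921 to 21864 (Cy5) and from 17244 to 26440 (Cy3), and medians of -0.06, 0.14, -0.37 and -0.02. These lay nearer 0 than the ratios of Fabp4. Of 10 macrophage markers 9 were tested and 8 well above background throughout, with sums of 33620 to 60094 in Cy5 and 44085 to 69419 in Cy3 and medians of -0.30, -0.01, 0.41 and 0.56. Erythroid markers, 7 of 8 tested and 7 measured, had sums from 264967 to 325366 (Cy5) and from 163951 to 445065 (Cy3), with medians of -0.78, 0.27, 0.46 and 0.20. Of 8 liver markers 6 were tested, among them neither Alb nor Apoa1, and 4 were well above background throughout. Their sums ran from 3022 to 7517 (Cy5) and from 2998 to 24275 (Cy3), with medians of 0.28, 0.13, 0.18 and 0.02, with the sign of Pck1 on arrays 2 and 4 and the opposite sign on arrays 1 and 3. The list was not uniform, since Ttr had -4.37, -4.25, 0.49 and 1.04 on arrays 1 to 4. The Cy3 sums of the list were 19823, 24275, 6553 and 2998 on these arrays, and the share of Ttr in them was not tested. The 10 neuron markers, 9 of them well above background throughout, had sums from 18822 to 28897 (Cy5) and from 21233 to 77358 (Cy3) and medians of -2.40, -1.83, -0.49 and 0.25. The part of these cells in the ratios of the fat cell genes was not tested.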

How the data were processed

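The authors scanned the two-colour 4x44K arrays and quantified them with Feature Extraction 10.10.1.1. In each array's deposited file the intensity of a spot had been corrected for background and spatial trend and normalized between dyes, and a log10 ratio (Cy5 to Cy3) was given with it. The deposited table of log10 ratios holds the same values rounded. The paper's methods state no test.

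The log10 ratios were converted to log2. Control spots, flagged spots (164 to 274 per array) and spots without a ratio (6179 to 8558 of 43020) were left out, spots of a probe were averaged, and a probe needed a ratio on 3 arrays, which left 31577 probes. Accessions were named with the RefSeq table of GRCm38.p6 (27655 of 39429 probes). An intercept was fitted with lmFit and eBayes in limma 3.58.1 under R 4.3.3 (prior degrees of freedom 1.98), two-sided. The number of arrays and the signal over background limit the precision. Between 66.6% and 70.0% of spots in Cy5 and between 60.5% and 69.1% in Cy3 were well above background. On data simulated for this comparison (29925 probes), 88 probes were called, 2 of them false, with 64 of 100 recovered at a log2 change of 2 and 22 of 100 at 1. The members, lists and tests were chosen with earlier results of these data known. Named genes were all fat cell genes, at most 3 genes per role of the wider list by smallest p among those measured in both channels on all arrays, and the 10 genes most like Adipoq. 1 gene that this rule names is not reported here. Other names were chosen after their values were seen and are introduced as such or stand beside a count. Alternatives were normexp (offset 50, on median signals) with loess or median centring, the deposited ratio table, filters on dim probes, flagged spots kept, no eBayes or an intensity trend, the mean of a gene's probes, and each array left out with 2 ratios sufficient. All 4 arrays lay on 1 slide.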

Additional observations from a re-analysis of the deposited data

Results flagged for a closer look

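Of 60 sets of 4 values examined, 2 held an array further from the others than Dixon's critical value for 4 values permits, which by chance happens in about 1 in 20 sets. The log2 ratio of Dlk1, an inhibitor of fat cell formation, was -1.55 on array 3 and 1.28, 1.31 and 1.00 on arrays 1, 2 and 4 (gap over range 0.892). The log2 ratio of Klf15 was 0.09 on array 1 and 0.67, 0.71 and 0.72 on arrays 2, 3 and 4 (gap over range 0.916). No ratio or signal of the 10 fat cell genes stood out in this way.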

How the results depend on the processing

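Normexp with median centring moved most values, and the median ratio of all genes went from 0.04 to 0.21 under it. With it 6 fat cell genes had an unadjusted p under 0.05 (43.6% of all genes did), 3 an adjusted p (21.1% of all genes), namely Adipoq, Retn and Cidec, and 3 were past 2-fold (Retn, Cidec and Cidea; 2.95% of all genes). The median ratio of the 10 genes was 0.83. In the wider list 37 genes then had an unadjusted and 19 an adjusted p under 0.05. Without eBayes 0 fat cell genes had an unadjusted p under 0.05, and with the mean of a gene's probes 1 did. With 1 array left out, the number with an unadjusted p ranged from 0 to 2, the number past 2-fold from 0 to 1, and the number in the wider list with an unadjusted p from 3 to 17. The sign of a mean turned for Lep with loess (-0.00048) and with median centring (-0.13), for Fabp4 with loess (0.045) and with median centring (0.85), and for Pck1 with median centring (0.29). Leaving out an array turned it for Lep (from -0.11 to 0.24), Lpl (from -0.0065 to 0.42), Fabp4 (from -0.33 to 0.34), Pck1 (from -0.33 to 0.19) and Cidea (from -0.025 to 0.91). Adipoq, Retn, Plin1, Cidec and Ucp1 kept their sign under all 13 alternatives, but not all of these could turn it. Leaving out eBayes, the intensity trend and the filters on dim probes left those means as they were. The deposited table holds the same ratios rounded. The causes of the changes above were not tested. The tests on ratios already pair the 2 extracts of an array. Lep is limited by its signal, close to background.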
